A study of Mus musculus with 28 samples.

Results

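J20-positive (J20+) mice and their wild-type littermates (J20-), all male and 12 to 14 months old, were compared at zeitgeber time (ZT) 6, in the middle of the light phase, by sequencing poly(A) RNA of the lateral ventricle choroid plexus. The comparison takes every library that the labels place in those 2 groups, 4 J20+ day libraries and 4 J20- day libraries, 8 of the 28 in the series. Each library carries its own label, and nothing in the labels says that animals were pooled. The 8 night libraries of the same batch, 4 J20+ and 4 J20- taken at ZT 18, entered the same model and are used for the difference between day and night. The J20 line expresses human amyloid precursor protein (APP) from a transgene bearing the Swedish and Indiana mutations of familial Alzheimer's disease, driven by the platelet-derived growth factor B promoter, which is active mainly in neurons. The labels state neither the copy number of the transgene in these mice nor their background strain. Mice of both genotypes were perfused with saline before the tissue was dissected and frozen.

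The choroid plexus is a sheet of epithelium over a vascular stroma. The epithelium secretes cerebrospinal fluid (CSF) by moving ions and water, adds proteins such as transthyretin to it, and forms a barrier between blood and CSF. Amyloid-beta, the peptide cut from APP by beta- and gamma-secretase, is cleared partly through this tissue by receptors, carriers, binding proteins and peptidases. The comparison addresses how an amyloid-producing genotype differs from wild type at a fixed time of day.

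Levels are given as CPM, the counts of a gene per M counts (mega) of the normalized library. A log2 fold change is J20+ over J20-, and its standard error (SE) and 95% interval come from edgeR's quasi-likelihood fit over the 16 aged libraries. CPM is not corrected for gene length, so levels are compared between libraries and not between genes. Within a group libraries are numbered 1 to 4 and the numbers pair no animals.

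The 4 J20+ day libraries held 19.6M to 43.9M counts and the 4 J20- day libraries 15.1M to 20.5M. The means were 27.2M ± 11.2M and 17.4M ± 2.35M (SD, n = 4 each; exact 2-sided permutation p = 0.0571, adjusted p = 0.932 over 18 library measures, where the smallest p possible is 0.0286). Markers of choroid epithelium were at a mean log2 CPM of 9.19 to 9.74 in J20+ and 9.39 to 9.75 in J20- libraries, so the labelled tissue was present in all of them. Neural markers (neuron, oligodendrocyte and astrocyte genes) differed more between libraries than between genotypes. Their mean log2 CPM was 5.25, 3.73, 2.13 and 1.57 in J20+ libraries 1 to 4, against 3.39, 2.33, 4.53 and 1.37 in J20- libraries 1 to 4. J20+ library 1 stood apart: it had the highest neural, stromal and macrophage levels and the lowest choroid epithelium level of the 8. The first principal component held 67.3% of the variance of the 8 libraries, with J20+ library 1 at one end and J20- library 4 at the other. Values without J20+ library 1 are therefore given beside many of the estimates. J20+ and J20- stand for the genotype on a library's label. The level of Zbtb20, the gene that holds the transgene, was higher in J20- day library 4 than in any J20+ day library, and in J20+ day library 2 and J20+ night library 2 it lay within the range of the other J20- libraries. Whether these 3 labels are right was not determined here, and the labels were used as given.

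**Figure D1:**
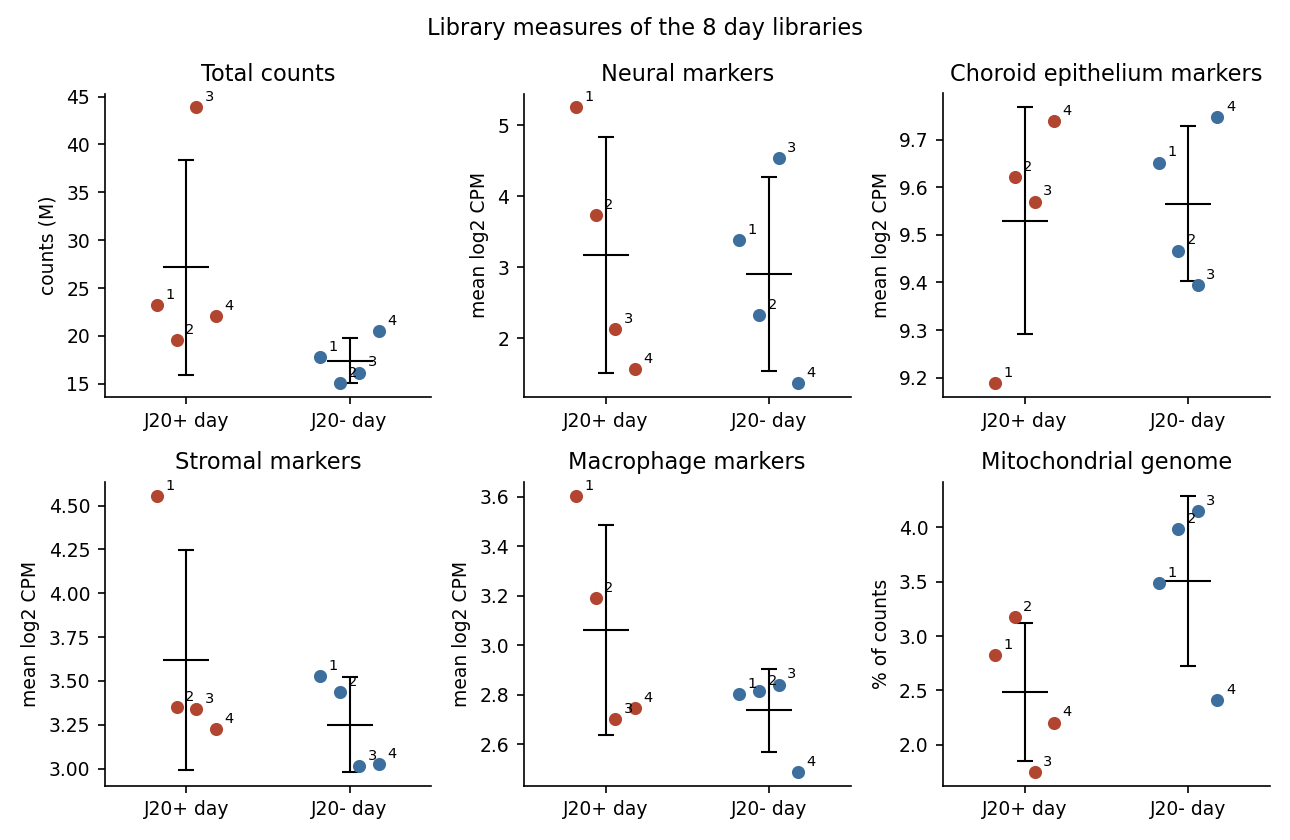
Library measures of the 4 J20+ day and 4 J20- day libraries: total counts in units of M, the mean log2 CPM of 4 sets of marker genes, and the share of counts from the mitochondrial genome in percent. Points are libraries, numbered as in the text, and the bar and whiskers are the mean and SD (n = 4); J20+ library 1 has a neural score of 5.25 and J20+ library 3 has 43.9M counts.

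No gene was called different between J20+ and J20- choroid plexus at day. Of 16065 genes tested by edgeR's quasi-likelihood test with Benjamini-Hochberg adjustment, 0 passed an adjusted p of 0.05 (0%), and the smallest adjusted p was 0.989. At an unadjusted p under 0.05 there were 300 genes (1.87%), of which 237 were higher (1.48%) and 63 lower (0.392%) in J20+. The 4 J20+ libraries lay wholly above the 4 J20- libraries for 53 genes (0.33%) and wholly below them for 166 genes (1.03%). The median log2 fold change over all genes was 0.03 and the median absolute value 0.16, against a median SE of 0.26.

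The fit also bounds the differences that these libraries could hold. For 10886 genes (67.8%) the 95% interval lay within 1 log2 unit either way. Among the 6489 genes whose mean log2 CPM reached 5 the median SE was 0.20. A fold change of at least 1 log2 unit was estimated for 983 genes (6.12%), 888 of them higher in J20+, and J20+ library 1 was the highest of the 8 libraries for 873 of those 888. Of the 237 genes at an unadjusted p under 0.05 that were higher, J20+ library 1 was the highest for 222. Over all 16065 genes tested J20+ library 1 was the highest of the 8 for 3400 and the lowest for 4678. Without that library 79 genes were at an unadjusted p under 0.05, and again 0 were called.

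Another test changed the count. DESeq2 called 0 genes (416 at an unadjusted p under 0.05), and limma-voom without quality weights called 0 (163). Limma-voom with quality weights, which gives each library its own weight from its distance to the fit, called 2369 genes (14.7%), 1690 higher and 679 lower in J20+, with a smallest adjusted p of 0.0266. The weights were 0.222, 0.8, 2.78 and 2.45 for J20+ libraries 1 to 4, and 2.69, 1.67, 1.02 and 0.408 for J20- libraries 1 to 4. J20+ libraries 3 and 4 and J20- libraries 1 and 2 thus carried the most weight. Those libraries also differed in depth, with 43.9M and 22.1M counts in J20+ libraries 3 and 4, against 17.8M and 15.1M in J20- libraries 1 and 2, and in the slope of their counts on transcript GC content, given with Zbtb20. The part of depth or of that slope in these calls was not tested.

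Leaving out the 3 libraries whose Zbtb20 level lay with the other genotype also changed the count. In the comparison of the 3 J20+ and 3 J20- day libraries that remained, edgeR's quasi-likelihood test called 58 of 16184 genes (0.358%), 57 higher and 1 lower in J20+, with a smallest adjusted p of 0.029. All 58 were also called by limma-voom with quality weights, and J20+ library 1 was the highest of the 6 libraries for 7 of them. That tool used the same counts. It gave J20+ day library 2, J20- day library 4 and J20+ night library 2 weights of 0.8, 0.408 and 0.072, so the overlap is no separate support. These libraries were chosen by a measured level after the data were seen, so the 58 genes are a description of the libraries left. Leaving out any 1 day library gave 0 calls.

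**Figure D2:**
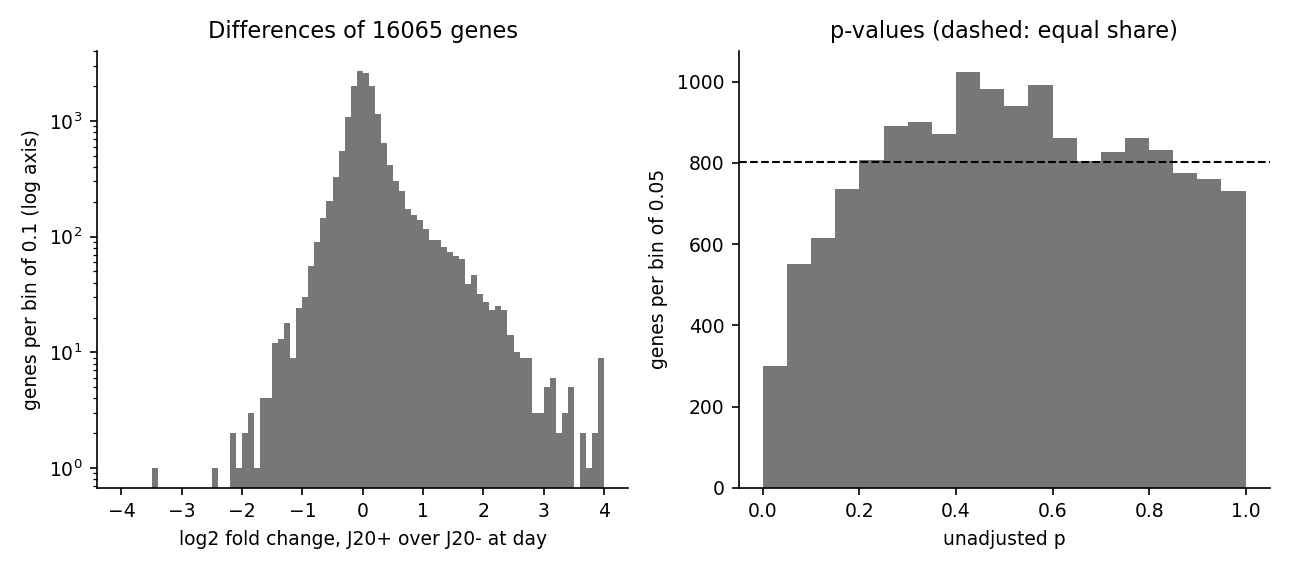
Left, the log2 fold change of J20+ over J20- at day for the 16065 genes tested, with values past 4 drawn at 4 and the number of genes on a log axis. Right, the unadjusted p-values in bins of 0.05, with a dashed line at an equal share per bin; the lowest bin holds 300 genes and is the shortest, and the upper tail of fold changes is longer than the lower one.

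App, the mouse gene for amyloid precursor protein (Entrez 11820; mm10, chromosome 16, 84952666 to 85175255), was at 1667, 2252, 1485 and 1591 CPM in J20+ libraries 1 to 4, against 1996, 1974, 1760 and 1762 CPM in J20- libraries 1 to 4. The groups overlapped, and J20+ libraries held both the highest and the 3 lowest values. The log2 fold change was -0.10 ± 0.34 (SE; 95% interval -0.83 to 0.64; adjusted p = 0.989). The submitters' processing notes name the mouse build mm10, and the table has no row for the human transgene, and how many of its reads counted toward App was not determined here. App therefore does not check the genotype labels.

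Zbtb20, a zinc-finger repressor of transcription (Entrez 56490; mm10, chromosome 16, 42875689 to 43634392), is the gene in which the J20 transgene is known to lie. It was at 8.34, 3.36, 17.5 and 19.9 CPM in J20+ libraries 1 to 4, against 3.46, 2.07, 2.31 and 35.7 CPM in J20- libraries 1 to 4. In J20+, 3 of the 4 libraries were above J20- libraries 1 to 3, while J20- library 4 was the highest of all. The log2 fold change was 0.17 ± 0.85 (SE; 95% interval -1.64 to 1.99; adjusted p = 0.989), and without J20- library 4 it was 2.22. Limma-voom with quality weights, which gives that library a weight of 0.408, put it at 2.15 (adjusted p = 0.0421).

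At night Zbtb20 was at 6.29, 3.05, 20.4 and 16.1 CPM in J20+ libraries 1 to 4, against 3.06, 2.88, 2.19 and 2.97 CPM in J20- libraries 1 to 4. Over day and night, 6 of 8 J20+ libraries were above 3.46 CPM, and 7 of 8 J20- libraries were at 2.07 to 3.46 CPM, with J20- day library 4 as the exception. The night log2 fold change was 2.05 ± 0.89 (SE; adjusted p = 0.136), and the day-minus-night difference was -1.88 ± 1.22 (SE; adjusted p = 0.492). The GC trend of a library is relative to the average of the 16 aged libraries, so its sign means above or below that average. It is the slope, on transcript GC content, of log2 CPM minus each gene's mean over those libraries. It was -0.048, -0.051, -0.208 and -0.215 per 10 percentage points in J20+ day libraries 1 to 4, against -0.100, 0.017, 0.062 and -0.279 in J20- day libraries 1 to 4. The 3 day libraries with the steepest negative slope, J20- library 4 and J20+ libraries 3 and 4, were the 3 with the highest Zbtb20, and the part of this trend in Zbtb20 was not tested.

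The 14 genes of a choroid plexus function panel showed no called difference, and for each of them the J20+ and J20- libraries overlapped. For 12 of the 14 the 95% interval lay within 1 log2 unit either way. J20+ library 1 was the lowest of the 8 libraries for 12 of the 14, and J20- library 4 was the highest for 8. Without J20+ library 1 the estimates of the panel other than Ttr and Lrp2 were -0.14 to 0.28. In bulk tissue fewer cells of a type and less RNA per cell cannot be told apart.

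Ttr, transthyretin, the carrier of thyroid hormone that binds amyloid-beta, was at 6657, 9186, 5089 and 8291 CPM in J20+ libraries 1 to 4, against 10320, 11170, 10490 and 8930 CPM in J20- libraries 1 to 4. In J20+, 3 libraries were below all J20- libraries and J20+ library 2 lay above J20- library 4. Its log2 fold change was -0.48 ± 0.20 (SE; 95% interval -0.91 to -0.07), with an unadjusted p of 0.0266 and an adjusted p of 0.989. It was -0.44 without J20+ library 1, and -0.62 in limma-voom with quality weights (adjusted p = 0.0285).

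The ion and water machinery gave smaller estimates. Aqp1, the apical water channel, was at 504, 1023, 999 and 1321 CPM in J20+ libraries, against 919.6, 845, 680.5 and 1239 CPM in J20- libraries, a log2 fold change of 0.06 ± 0.46 (SE). Slc12a2, the sodium-potassium-chloride cotransporter NKCC1, was at 932, 1488, 1715 and 1497 CPM in J20+ libraries, against 1314, 965, 1008 and 1985 CPM in J20- libraries, a log2 fold change of 0.10 ± 0.40 (SE). In both genes the spread within a genotype was wider than the difference between the means. Kcnj13, an inward-rectifier potassium channel, had a log2 fold change of -0.17 ± 0.18, and Slc4a5, a sodium bicarbonate cotransporter, 0.06 ± 0.26 (SE). All adjusted p-values of these genes by edgeR's quasi-likelihood test were at least 0.989.

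Among the secreted and receptor genes of the panel none was called either. Igf2, insulin-like growth factor 2, had a log2 fold change of -0.09 ± 0.32, Clu, the apolipoprotein clusterin, -0.23 ± 0.22, and Enpp2, autotaxin, -0.18 ± 0.33 (SE). Kl, the anti-ageing membrane protein klotho, stood at -0.06 ± 0.33, Folr1, the folate receptor, at 0.03 ± 0.29, and Otx2, the homeobox factor of choroid identity, at -0.16 ± 0.15. Prlr, the prolactin receptor, was at 0.05 ± 0.44 and Htr2c, a serotonin receptor, at 0.02 ± 0.28. Lrp2, the endocytic receptor megalin, was the exception in size: it was at 12.6, 0.841, 0.27 and 0.15 CPM in J20+ libraries 1 to 4, against 1.27, 0.334, 0.591 and 0.168 CPM in J20- libraries 1 to 4. Its log2 fold change of 2.54 ± 1.19 (adjusted p = 0.989) rests on J20+ library 1 and was -0.53 without it.

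**Figure D3:**
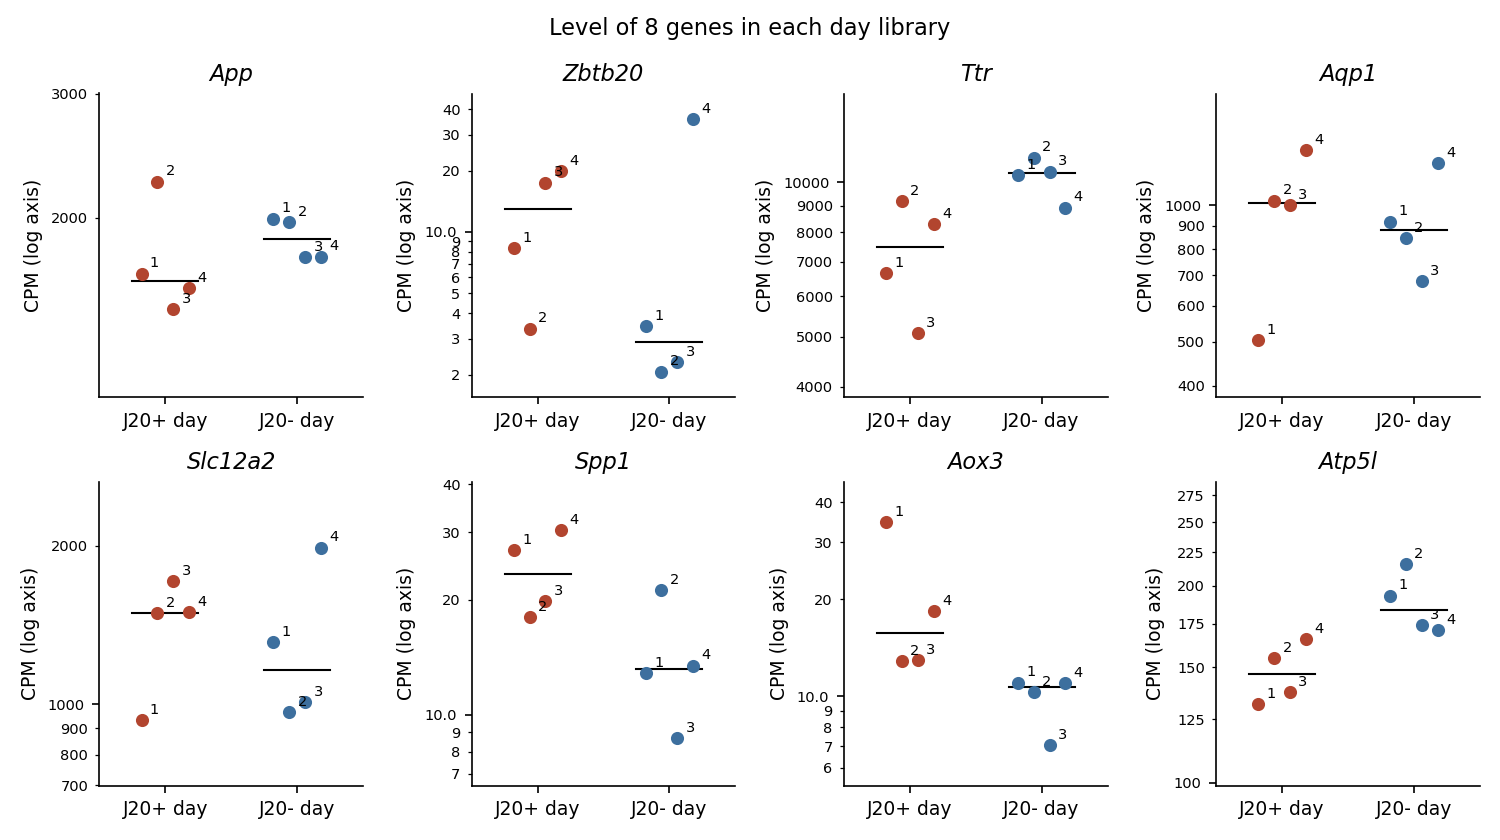
CPM on log axes of 8 genes in the 4 J20+ day and 4 J20- day libraries. Points are libraries, numbered as in the text, and the line is the group's median; J20- library 4 has the highest Zbtb20 at 35.7 CPM, and of the genes shown Aox3 and Atp5l are those whose groups do not overlap.

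Wider lists of choroid plexus genes are described by counts. Beside them stand the shares over all genes tested: 0% called, and a median log2 fold change of 0.03. Of 36 tested genes of ion and water transport 18 had a positive and 18 a negative estimate, with a median of 0.01. The gene of that list with the smallest p was Wnk2, a kinase that regulates chloride cotransporters, at 60.9, 52.8, 71.2 and 64 CPM in J20+ libraries, against 39.2, 49.2, 42.4 and 62.9 CPM in J20- libraries. Its log2 fold change was 0.36 ± 0.15 (adjusted p = 0.989), and 0.38 without J20+ library 1. Wnk3, a kinase of the same family, stood at 0.85 ± 0.42 (0.50 without that library), and Fxyd2, a regulator of the sodium pump, at -0.64 ± 0.33 (SE).

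Of 30 genes for secreted CSF proteins 12 were positive and 18 negative, with a median of -0.12. Ttr and a pair of low genes had the smallest p in this list. Rbp4, the plasma carrier of retinol, had a log2 fold change of 1.59 ± 0.58, and 0.43 without J20+ library 1. Wnt5a, a secreted Wnt ligand, had 0.86 ± 0.37, and 0.28 without that library. The 34 solute, drug and hormone carriers split into 17 positive and 17 negative, with a median of 0.00. Their smallest p-values belonged to Abcb1a (P-glycoprotein), Slc22a6 (an organic anion transporter) and Slc6a13 (a transporter of GABA), which were at 63.1, 19.9 and 45.4 CPM in J20+ library 1. Without that library their log2 fold changes were -0.08, -0.35 and -0.30. Junction genes had a median of 0.06 over 26 genes, and hormone and neuromodulator receptors 0.20 over 24.

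Genes that make or clear amyloid-beta were measured because the transgene supplies its precursor. Of 26 genes of the App family and its secretases 16 were positive and 10 negative (median 0.05), and 0 were called. Adam10, the main alpha-secretase, was at 85.8, 97.5, 139.6 and 142 CPM in J20+ libraries, against 89.4, 62.2, 58.9 and 144 CPM in J20- libraries. J20- library 4 again matched the upper J20+ libraries, and the log2 fold change was 0.39 ± 0.48 with it and 0.73 without it. In limma-voom with quality weights Adam10 was 0.77 (adjusted p = 0.038). Bace1, the beta-secretase, had 0.10 ± 0.19 (SE). Adam10 and Bace1 were chosen after their values were seen.

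By the smallest p, the genes of that list to name were Sorl1, Apbb2 and Psenen. Sorl1, a sorting receptor of APP, was at 112, 14.3, 22.5 and 45.6 CPM in J20+ libraries, against 15.7, 10.2, 14.4 and 38.1 CPM in J20- libraries, a log2 fold change of 1.31 ± 0.63 (adjusted p = 0.989), and 0.49 without J20+ library 1. Apbb2, an adaptor that binds the tail of APP, stood at 0.29 ± 0.19 (0.062 without that library), and Psenen, a subunit of gamma-secretase, at -0.30 ± 0.20 (SE). Psenen was -0.38 in limma-voom with quality weights (adjusted p = 0.0314).

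Of 35 genes of amyloid-beta degradation and clearance 19 were positive and 16 negative (median 0.04). Mme, the amyloid-degrading peptidase neprilysin, was the only gene of this list whose groups did not overlap, against 1.36% of all genes. It was at 10.2, 7.83, 8.95 and 8.78 CPM in J20+ libraries, against 6.05, 4.95, 4.97 and 7.62 CPM in J20- libraries, a log2 fold change of 0.60 ± 0.47 (SE; adjusted p = 0.989). Ide, the insulin-degrading enzyme, was at 96.7, 113, 211 and 193 CPM in J20+ libraries, against 114, 112, 94.8 and 208 CPM in J20- libraries, a log2 fold change of 0.21 ± 0.27, and 0.52 without J20- library 4. Apoe, the apolipoprotein, was at 1480, 1945, 1448 and 1870 CPM in J20+ libraries, against 2067, 2130, 2039 and 1768 CPM in J20- libraries, a log2 fold change of -0.25 ± 0.15. Lrp1, a clearance receptor, had -0.07 ± 0.19. Mme, Ide, Apoe and Lrp1 were chosen after their values were seen, and in limma-voom with quality weights Ide was 0.66 (adjusted p = 0.0285) and Apoe -0.30 (adjusted p = 0.0734). The 22 genes of tau and neurodegeneration had a median of 0.19, and of -0.01 without J20+ library 1.

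The macrophage, complement and interferon lists had positive medians that were smaller or negative without J20+ library 1. Of 20 macrophage markers 19 had a positive estimate, with a median of 0.28, and of 0.09 without that library. The level of the list, as the mean log2 CPM over its members, was 2.70 to 3.60 in J20+ libraries and 2.49 to 2.84 in J20- libraries. Lyve1, a marker of border macrophages, was at 0 in J20- library 2. In 2 of the 20 the groups did not overlap, Mrc1 and Fcrls, against 0.33% of all genes. Mrc1, the mannose receptor of border macrophages, was at 16.1, 8.46, 9.35 and 8.33 CPM in J20+ libraries, against 8.19, 6.35, 4.26 and 5.83 CPM in J20- libraries, a log2 fold change of 0.78 ± 0.26 (adjusted p = 0.989), and 0.50 without J20+ library 1. Fcrls, an Fc receptor-like protein of microglia and related macrophages, was at 10.2, 6.67, 5.64 and 5.57 CPM in J20+ libraries, against 4.32, 5.08, 4.85 and 4.59 CPM in J20- libraries.

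Spp1, osteopontin, had the smallest p of the list. It was at 27, 18, 19.8 and 30.4 CPM in J20+ libraries, against 12.8, 21.1, 8.69 and 13.4 CPM in J20- libraries. J20- library 2 lay above J20+ libraries 2 and 3, and the log2 fold change was 0.76 ± 0.25 (unadjusted p = 0.00779, adjusted p = 0.989). This estimate was 0.70 without J20+ library 1, and 0.75 in limma-voom with quality weights (adjusted p = 0.0388). Csf1r, the receptor that macrophages need to survive, was at 47.2, 35.3, 25.7 and 29.5 CPM in J20+ libraries, against 22.5, 32.6, 35.1 and 25.3 CPM in J20- libraries. Trem2, a lipid-sensing receptor of microglia, had a log2 fold change of 0.26 ± 0.30, and Cd68, a lysosomal protein of phagocytes, -0.05 ± 0.31 (SE).

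In several complement and interferon genes J20+ library 1 was the highest of the 8. The 20 complement genes had a median of 0.29, and of 0.06 without it. C3, the central complement component, was at 112, 11.7, 2.06 and 2.81 CPM in J20+ libraries, against 13.5, 6.95, 6.39 and 0.952 CPM in J20- libraries, and its log2 fold change of 2.21 ± 1.07 became -0.34 without J20+ library 1. C1s1, a serine protease of the classical pathway, was above in all J20+ libraries, as the only gene of the 20, against 0.33% of all genes. It was at 27.3, 32.7, 27.5 and 32.4 CPM in J20+ libraries, against 23.2, 25.3, 24.9 and 25.1 CPM in J20- libraries. Its log2 fold change was 0.28 ± 0.12 (adjusted p = 0.989), and 0.33 without J20+ library 1. C2, a component of the same pathway, was at 0.78 ± 0.36, and 0.10 without it.

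The 34 interferon response genes had a median of 0.21 with J20+ library 1 and of -0.28 without it. Gbp2, a guanylate-binding protein, was at 24.5 CPM in that library and at 1.96 to 6.80 CPM in the other 7. Oasl2, an antiviral oligoadenylate synthetase-like protein, was at 32.8 CPM there, and Ifit3b, an interferon-induced protein, at 13.6 CPM. Inflammatory cytokine and NF-kB genes had a median of 0.05 over 28 genes, and of 0.07 without that library. In that list Il6st, the shared signalling receptor of the interleukin 6 family, was at 242, 143, 197 and 212 CPM in J20+ libraries, against 122, 80.3, 83.1 and 225 CPM in J20- libraries, a log2 fold change of 0.64 ± 0.38. Without J20- library 4 it was 1.08, and in limma-voom with quality weights 0.90 (adjusted p = 0.0266). Osmr, the oncostatin M receptor, stood at 0.60 ± 0.31, and Tnfrsf1b, a receptor of tumour necrosis factor, at 0.46 ± 0.32 (SE), which were 0.17 and 0.26 without J20+ library 1. Antigen presentation genes had a median of 0.03 over 25 genes. Of 9 tested lymphocyte and neutrophil markers 5 were positive and 4 negative, with a median of 0.20 and estimates of -1.83 to 1.72. In 2 of the 9 the J20+ libraries lay wholly below, against 1.03% of all genes. The lowest estimate was that of Cd8a. Cd8a, the co-receptor of cytotoxic T cells, was at 0.374, 0.315, 0.196 and 0.0502 CPM in J20+ libraries, against 0.404, 0.401, 1.18 and 1.4 CPM in J20- libraries. Counts behind such levels are low, and its adjusted p was 0.989.

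Time-of-day genes were compared because all 8 libraries were taken at ZT 6. Of 23 core clock genes 14 were positive and 9 negative, with a median of 0.10, and in none did the groups separate. Arntl (Bmal1), the activator of the clock, was at 15.5, 6.57, 8.95 and 5.72 CPM in J20+ libraries, against 10.4, 6.42, 9.29 and 7.84 CPM in J20- libraries. Nr1d1 (Rev-erb alpha), its repressor, was at 111, 97.8, 106 and 97.1 CPM in J20+ libraries, against 87.4, 129.8, 112 and 88.8 CPM in J20- libraries. Neither differed beyond the spread within a genotype, with log2 fold changes of 0.11 ± 0.37 and -0.02 ± 0.23 (SE).

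Dbp, a clock-driven transcription factor, had a log2 fold change of -0.01 ± 0.26, with a 95% interval of -0.57 to 0.56, and Per2, a clock repressor, -0.22 ± 0.44 (-0.08 without J20+ library 1). These 4 clock genes were chosen after their values were seen. By the smallest p the genes of the list were Cry2, a clock repressor, at 0.15 ± 0.14, Rorb, a nuclear receptor, at 1.04 ± 0.94, and Bhlhe41, a repressor that feeds back on the clock, at 0.33 ± 0.31 (SE). Rorb was -0.58 without J20+ library 1.

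Responses to hormone and stress gave 0 calls as well. Glucocorticoid-responsive genes had a median of 0.08 over 27 genes. Fkbp5, a co-chaperone induced by glucocorticoid, was at 17.4, 9.04, 14.1 and 14.2 CPM in J20+ libraries, against 9.05, 9.69, 9.17 and 12.3 CPM in J20- libraries, a log2 fold change of 0.45 ± 0.23 (adjusted p = 0.989). Cebpd, a transcription factor of the acute phase, was below 1 CPM throughout, with an estimate of 1.18 ± 0.59 (SE), and of 0.60 without J20+ library 1.

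Immediate early genes, which neurons and epithelia induce within minutes, had a median of 0.20 over 26 genes, and of -0.06 without J20+ library 1. Atf3 was at 0.81 ± 0.35 (0.45 without that library), Dusp5 at 0.73 ± 0.38 and Nr4a2 at 0.47 ± 0.30 (SE). Of 30 genes for protein folding in the endoplasmic reticulum (ER) and its unfolded protein response 22 were negative, with a median of -0.13. Manf, an ER-stress-induced neurotrophic factor, was at 106, 122, 91.1 and 98.5 CPM in J20+ libraries, against 174, 140.3, 146 and 91.3 CPM in J20- libraries, a log2 fold change of -0.40 ± 0.23 (adjusted p = 0.989). J20- library 4 lay among the J20+ libraries. Sdf2l1, an ER chaperone cofactor, had -0.38 ± 0.25, and Derl3, a factor of ER-associated degradation, -0.67 ± 0.47 (SE). The integrated stress response had a median of -0.02 over 22 genes and cytosolic heat shock -0.02 over 23. All 12 cold-inducible RNA-binding and splicing genes were negative, with a median of -0.21 and 0 members whose groups separated. Cirbp itself was at -0.04 ± 0.20, and Rbm3 at -0.09 ± 0.13 (SE).

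Energy and ribosome genes shared small negative estimates. Of 37 nuclear genes of the respiratory chain 34 were negative, with a median of -0.19, and of -0.12 without J20+ library 1. In 3 of the 37 the J20+ libraries lay wholly below, against 1.03% of all genes, and 0 were called. Cox6c, a subunit of cytochrome c oxidase, was at 196, 236, 179.8 and 236 CPM in J20+ libraries, against 293, 351, 280.2 and 241 CPM in J20- libraries, a log2 fold change of -0.46 ± 0.21 (adjusted p = 0.989). Ndufa2 and Ndufb3, subunits of complex I, were the other 2, with -0.27 ± 0.19 and -0.26 ± 0.14. Cox4i1, a further oxidase subunit, was at 589.7, 729.9, 568 and 685 CPM in J20+ libraries, against 837, 905, 817 and 699 CPM in J20- libraries, a log2 fold change of -0.34 ± 0.14, and Ndufa1, of complex I, had -0.39 ± 0.16 (SE). In all 37 genes the 95% interval lay within 1 log2 unit either way.

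Of 48 cytosolic ribosomal protein genes 43 were negative, with a median of -0.19, and of -0.18 without J20+ library 1. In 4 of them, Rpl30, Rpl32, Rps14 and Rps21, the J20+ libraries lay wholly below, against 1.03% of all genes. Rpl32 was at 125, 136, 127 and 128 CPM in J20+ libraries, against 153, 174, 146 and 138 CPM in J20- libraries, a log2 fold change of -0.24 ± 0.12 (adjusted p = 0.989). Rpl23, another protein of the large subunit, had -0.26 ± 0.14, and Rpl30 -0.22 ± 0.12 (SE). Ribosomal protein genes have many processed pseudogenes, and how reads with several alignments were counted is not given in the sources used here. All 48 members share libraries and scaling and are not independent, so their shared sign is a description.

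All 13 protein genes of the mitochondrial genome were negative, with a median of -0.53, and in 0 of them did the groups separate. Among them mt-Co1, the first subunit of cytochrome c oxidase, was at 6238, 8516, 4766 and 6618 CPM in J20+ libraries, against 9254, 10300, 9853 and 7278 CPM in J20- libraries, a log2 fold change of -0.49 ± 0.29 (adjusted p = 0.989). The mt-Nd1 gene of complex I had -0.51 ± 0.30 (SE). Both genes were chosen after their values were seen, and the estimates of all 13 were -2.20 to -0.28. The mitochondrial share of all counts was 2.83%, 3.17%, 1.75% and 2.2% in J20+ libraries 1 to 4, against 3.49%, 3.98%, 4.15% and 2.41% in J20- libraries 1 to 4. Its means were 2.49 ± 0.636% and 3.51 ± 0.782% (SD, n = 4 each; exact 2-sided permutation p = 0.114, adjusted p = 0.932). The shares were lowest in the libraries with the most negative GC trend, J20+ libraries 3 and 4 and J20- library 4, and the part of that trend was not tested.

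Lipid and redox genes had medians near 0. Sterol and fatty acid synthesis had a median of 0.14 over 28 genes, fatty acid oxidation -0.05 over 30, autophagy and lysosome -0.11 over 33, and the NRF2 antioxidant response 0.02 over 31. In the NRF2 list Slc7a11, the cystine transporter, was at 279, 37.4, 41.2 and 43.9 CPM in J20+ libraries, against 48.6, 26.8, 18.3 and 34.6 CPM in J20- libraries, and its log2 fold change of 1.64 ± 0.60 was 0.35 without J20+ library 1. Gpx3, the secreted glutathione peroxidase, was highest in J20+ library 4, with 37.4, 22.7, 21.8 and 75.4 CPM in J20+ libraries, against 26.8, 24.2, 20 and 25.8 CPM in J20- libraries. Fth1, the ferritin heavy chain, had -0.28 ± 0.13 (SE). Xenobiotic metabolism had a median of 0.02 over 32 genes, with Ces1d, a carboxylesterase, at 2.23 ± 0.85 and Fmo2, a monooxygenase, at 1.26 ± 0.51, which were 0.29 and 0.46 without J20+ library 1. Motile cilia genes had a median of -0.02 over 33 genes, metal handling 0.12 over 18 and cell cycle genes 0.03 over 18.

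Medians of several marker lists of other cell types changed sign without J20+ library 1. All 20 neuron markers were positive, with a median of 1.04 that became -0.66 without J20+ library 1. Astrocyte markers had a median of 1.20 over 15 genes, and of -0.30 without it, while oligodendrocyte markers had -0.56 over 18, and -1.06 without it. Ependyma, endothelium and mural cell markers had medians of 0.41, 0.33 and 0.26, and of -0.15, -0.12 and 0.00 without it.

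Fibroblast markers kept a positive median without that library. All 15 were positive, with a median of 0.59, and of 0.22 without J20+ library 1. Col1a2, a chain of type I collagen, was at 195, 114, 123 and 113 CPM in J20+ libraries, against 96.4, 73.1, 68.8 and 104 CPM in J20- libraries. It was the only gene of the 15 whose groups did not overlap, against 1.36% of all genes. Col1a2 is also among the 10 higher genes chosen below by such separation, which is no support for it. Its log2 fold change was 0.67 ± 0.24 (adjusted p = 0.989), and 0.45 without J20+ library 1. Col1a1, the partner chain, was at 64.6, 24.5, 26.8 and 27.2 CPM in J20+ libraries, against 27.4, 26.9, 21.4 and 19.4 CPM in J20- libraries. Dcn, the matrix proteoglycan decorin, had 0.88 ± 0.39, and Col12a1, a fibril-associated collagen, 1.15 ± 0.45, which were 0.24 and 0.37 without that library. The 30 collagen and matrix genes had a median of 0.22, and of 0.08 without it.

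**Figure D4:**
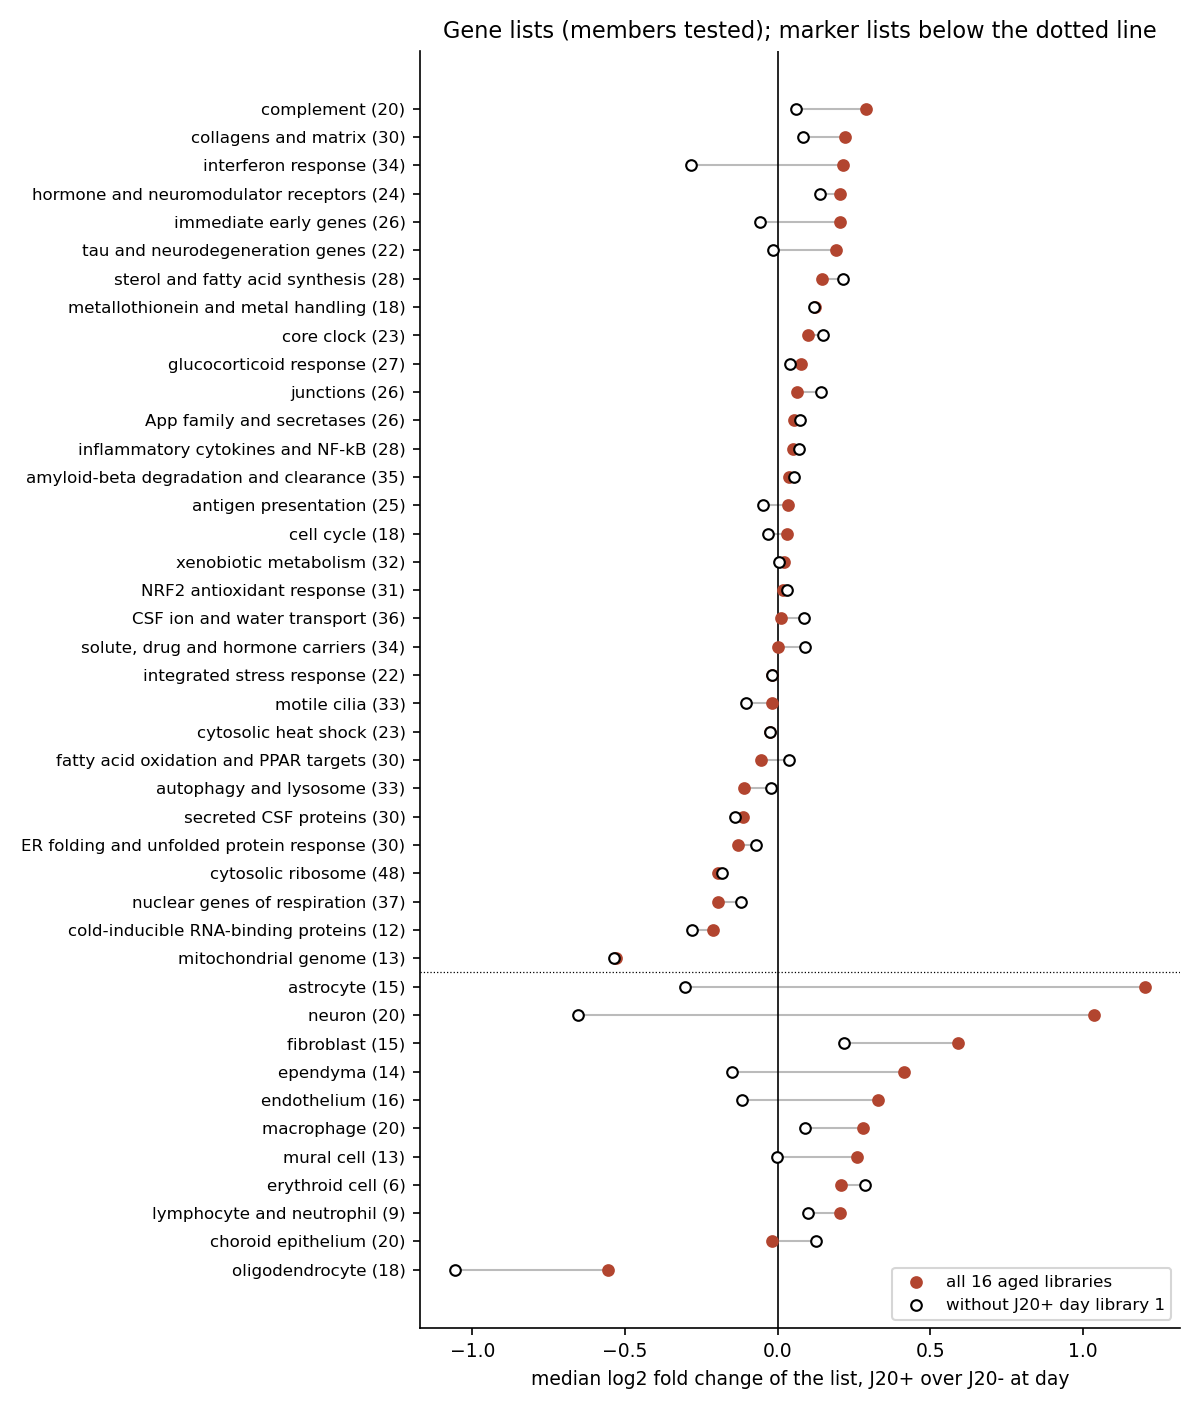
Median log2 fold change, J20+ over J20- at day, of each gene list, with the number of members tested in brackets. Filled points use all 16 aged libraries and open points leave out J20+ day library 1; the neuron median is 1.04 with it and -0.66 without it, while the ribosomal median is -0.19 with it and -0.18 without it.

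On each side 10 genes were singled out as those with the smallest p among genes whose groups did not overlap and whose mean log2 CPM reached 1. All had an adjusted p of 0.989, so they describe the leading edge of a comparison without calls. Since separation of the groups chose them, it is no support for them. J20+ library 1 was the highest of the 8 for all 10 higher genes, against 3400 of the 16065 genes tested. Their log2 fold changes were 0.59 to 1.28, and 0.36 to 0.60 without that library. Of the 10, 5 were also called by limma-voom with quality weights, which called 14.7% of all genes. The 10 were chosen by p in the same libraries, so those calls are no separate support.

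Aox3, an aldehyde oxidase (mm10, chromosome 1, 58113135 to 58202221), had the smallest p of the 20. It was at 34.6, 12.8, 13 and 18.4 CPM in J20+ libraries, against 11, 10.3, 7.04 and 11 CPM in J20- libraries, a log2 fold change of 1.00 ± 0.28 (95% interval 0.41 to 1.59; unadjusted p = 0.00249). Without J20+ library 1 it was 0.58, and limma-voom with quality weights gave 0.59 (adjusted p = 0.038). Pwwp2b, a chromatin-binding protein, was at 15.3, 10.2, 8.93 and 12.4 CPM in J20+ libraries, against 7.26, 7.15, 7.45 and 8.85 CPM in J20- libraries, a log2 fold change of 0.61 ± 0.17. Pik3ap1, an adaptor of phosphoinositide 3-kinase in immune cells, was at 4.64, 2.94, 3.24 and 2.61 CPM in J20+ libraries, against 2.08, 1.8, 1.72 and 2.13 CPM in J20- libraries, a log2 fold change of 0.80 ± 0.26. In these 3 genes J20+ libraries 2 to 4 were above the J20- libraries by a margin smaller than that of library 1.

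Ext1, a glycosyltransferase that builds heparan sulfate, was at 15.9, 10.7, 10.3 and 10.5 CPM in J20+ libraries, against 7.84, 7.42, 7.21 and 9.07 CPM in J20- libraries, a log2 fold change of 0.59 ± 0.22 (SE). Limma-voom with quality weights gave it 0.46 (adjusted p = 0.0266), the smallest adjusted p of that tool, which other genes share. Cd200, an immune-inhibitory membrane protein of neurons and endothelium, was at 36.9, 11.6, 12.4 and 12.9 CPM in J20+ libraries, against 11.3, 9.29, 7.75 and 7.34 CPM in J20- libraries. Mapk10, the neuronal kinase JNK3, was at 47.2, 10.8, 11.7 and 11.4 CPM in J20+ libraries, against 9.86, 5.68, 9.17 and 8.79 CPM in J20- libraries. Both are expressed in neurons. Both were highest in J20+ library 1, as were all 10 higher genes, and that library also had the highest neural score. With the neural score as a covariate their log2 fold changes were 0.86 and 0.91, against 1.05 and 1.28 without it, and without J20+ library 1 they were 0.46 and 0.44. Frmd6, an upstream regulator of Hippo signalling, had 0.68 ± 0.27, and Galnt7, a glycosyltransferase of mucin-type glycans, 1.00 ± 0.39 (SE), which were 0.36 and 0.37 without J20+ library 1. With the neural score as a covariate Frmd6 was 0.60 and Galnt7 0.80. The part of neural RNA in any of these differences was not tested.

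The 10 lower genes depended less on J20+ library 1, which was the lowest of the 8 for 4 of them, against 4678 of the 16065 genes tested. Their log2 fold changes were -0.79 to -0.27, and -0.74 to -0.23 without that library. Limma-voom with quality weights called 9 of them, against 14.7% of all genes. As they too were chosen by p in the same libraries, those calls are no separate support. J20- library 4 was the lowest of the J20- libraries, and so the nearest to J20+, for 9 of the 10. Lars2, the mitochondrial leucyl-tRNA synthetase (mm10, chromosome 9, 123366927 to 123462675), was at 232, 286, 213 and 185 CPM in J20+ libraries, against 293, 317, 288 and 287 CPM in J20- libraries. Its log2 fold change was -0.37 ± 0.14 (95% interval -0.67 to -0.07; unadjusted p = 0.0194). Without J20+ library 1 it was -0.37, and limma-voom with quality weights gave -0.51 (adjusted p = 0.0268).

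Atp5l, a subunit of ATP synthase, was at 132, 155, 138 and 166 CPM in J20+ libraries, against 193, 216, 174 and 171 CPM in J20- libraries, a log2 fold change of -0.35 ± 0.14 (SE). Gapdh, the glycolytic dehydrogenase often used as a reference gene, was at 106, 126, 104 and 129 CPM in J20+ libraries, against 150.3, 156, 134 and 132 CPM in J20- libraries, a log2 fold change of -0.30 ± 0.12. Gapdh and Rps15a have processed pseudogenes that could share reads, so their values are uncertain. Cryab, a small heat shock protein, was at 227, 263, 257 and 258 CPM in J20+ libraries, against 319.6, 355, 314 and 264 CPM in J20- libraries, a log2 fold change of -0.32 ± 0.13. Rps15a, a ribosomal protein, was at 179, 205, 174 and 200.5 CPM in J20+ libraries, against 238, 268, 233 and 208 CPM in J20- libraries. In each of these the gap between the groups was smaller than the range within either genotype.

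Zfp119b, a zinc-finger gene with close relatives, stood at -0.42 ± 0.15, and Cdk5rap1, a modifier of mitochondrial tRNA, at -0.32 ± 0.13 (SE). Atpsckmt, a methyltransferase that acts on ATP synthase, stood at -0.27 ± 0.12, and Rd3l at -0.51 ± 0.23 (SE). Defb9, a beta-defensin, was at 2.28, 2.68, 2.97 and 2.16 CPM in J20+ libraries, against 4.38, 4.81, 4.91 and 3.36 CPM in J20- libraries, a log2 fold change of -0.79 ± 0.34. Defb9 is low and belongs to a family of similar genes, so its reads may be shared.

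**Figure D5:**
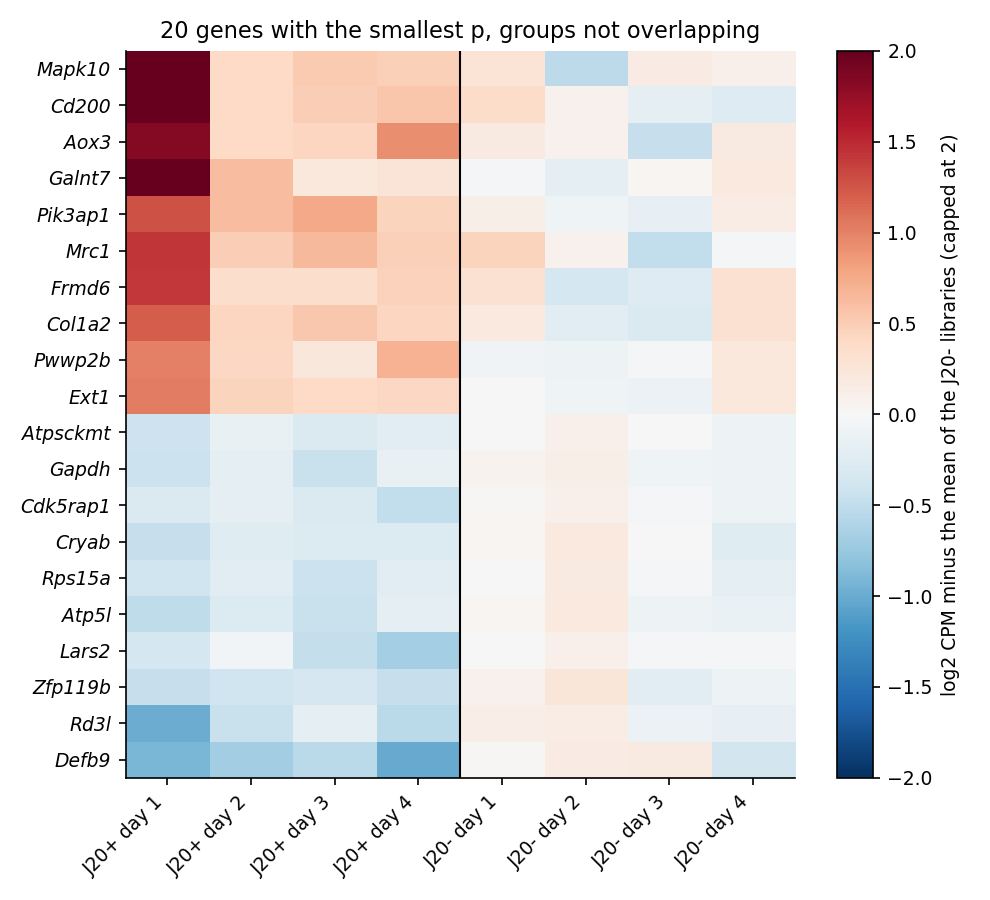
Log2 CPM of the 20 genes in each day library, as the difference from the mean of the 4 J20- libraries and capped at 2 either way, with J20+ libraries on the left and J20- libraries on the right. The 10 higher genes are darkest in J20+ library 1, while the 10 lower genes are spread over the 4 J20+ libraries.

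Further genes were high in J20+ library 1. Cdhr1, Pde6g, Sag, Vwf, Dlk1, Epyc and Tbc1d1 were chosen after their values were seen, as were Csf1r, Trem2, Cd68, Lyve1, Cd8a, Cirbp, Rbm3, Col1a1, Ndufa2, Ndufb3, Rps14 and Rps21 above. Cdhr1, a cadherin of photoreceptor outer segments, was at 57.7, 0.473, 0.319 and 0.201 CPM in J20+ libraries, against 0.922, 0.134, 0.532 and 0.168 CPM in J20- libraries. Pde6g, a subunit of the photoreceptor phosphodiesterase, was at 21.3, 0.946, 0.417 and 0.803 CPM in J20+ libraries, against 0.692, 0.468, 0.532 and 0.392 CPM in J20- libraries. Sag, the arrestin of retina and pineal gland, was at 37.4, 3.1, 2.4 and 2.21 CPM in J20+ libraries, against 3.06, 3.81, 5.26 and 2.24 CPM in J20- libraries. All 3 were high in J20+ library 1 alone, and without it their log2 fold changes were -0.42, 0.44 and -0.48.

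Vwf, the endothelial clotting factor, was at 131, 29.7, 6.45 and 8.18 CPM in J20+ libraries, against 11.3, 8.09, 6.45 and 7.28 CPM in J20- libraries, so J20+ library 2 was also above the J20- libraries. Dlk1, a Notch-family regulator and imprinted gene, was at 28.4, 2.58, 0.76 and 0.853 CPM in J20+ libraries, against 1.44, 0.602, 0.532 and 0.616 CPM in J20- libraries. Epyc, a small leucine-rich proteoglycan, had the smallest unadjusted p of all 16065 genes, 0.000731, with an adjusted p of 0.989 by edgeR's quasi-likelihood test. It was at 6.17, 2.63, 0.76 and 0.903 CPM in J20+ libraries, against 0.346, 0.134, 0.532 and 0.168 CPM in J20- libraries. Epyc was left out of the 20 genes because its mean log2 CPM is below 1. Tbc1d1, a Rab GTPase-activating protein of glucose uptake, was at 56.5, 16.5, 7.38 and 11.7 CPM in J20+ libraries, against 3.92, 4.14, 3.37 and 7.95 CPM in J20- libraries, a log2 fold change of 2.25 ± 0.59. It was 1.30 without J20+ library 1, and 1.28 in limma-voom with quality weights (adjusted p = 0.0363).

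Whether the genotype difference at day differed from that at night was tested as an interaction in the same fit. Of 16065 genes 0 were called (0%), with a smallest adjusted p of 0.359 and 1992 genes (12.4%) at an unadjusted p under 0.05. The night comparison alone called 1 gene (0.00622%) and had 5129 genes (31.9%) at an unadjusted p under 0.05. The interaction rested on the choice of libraries and tool. Without J20+ night library 2, 3409 genes were called (1588 higher and 1821 lower at day). DESeq2 called 9 and limma-voom with quality weights 5382. With J20+ day library 1 left out together with that night library 0 were called. That fit had 5657 of 16115 genes at an unadjusted p under 0.05 by edgeR's quasi-likelihood test, and a smallest adjusted p of 0.0708. At night the neural score was 3.12, 4.42, 1.92 and 1.40 in J20+ libraries 1 to 4, against 6.33, 5.94, 3.79 and 5.46 in J20- libraries 1 to 4. J20- night libraries 1, 2 and 4 were above every J20+ night library. With the neural score as a covariate the interaction had 419 genes at an unadjusted p below 0.05, and 0 were called. With the stromal score as a covariate it had 537 and without J20+ day library 1 alone 759, again with 0 called. The part of neural RNA in the interaction was not tested.

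The 5 genes with the smallest interaction p were Ppp1r3d, Necab2, Tafa5, Cntn3 and Abcd2. Necab2, a neuronal calcium-binding protein and the gene called at night (adjusted p = 0.0355), was at 16.2, 14.7, 15.9 and 11.7 CPM in J20+ day libraries, against 16.9, 14.5, 15.7 and 15.6 CPM in J20- day libraries. At night it was at 10.9, 16.8, 12 and 11.5 CPM in J20+ libraries, against 29.1, 34.8, 23.9 and 38.8 CPM in J20- libraries. The difference thus lies in the higher J20- night values, and the day-minus-night difference was 1.21 ± 0.24 (SE; adjusted p = 0.359). Tafa5, a secreted chemokine-like protein of the brain, was at 37.1, 27.5, 32.6 and 32.2 CPM in J20+ day libraries, against 31.2, 27.7, 27.8 and 28.2 CPM in J20- day libraries, with a day-minus-night difference of 0.67 ± 0.15. Ppp1r3d, a glycogen-targeting subunit of protein phosphatase 1, had 3.27 ± 0.62 at levels near 1 CPM or below. Cntn3, a neuronal adhesion protein, had 2.13 ± 0.50, and Abcd2, a peroxisomal fatty acid transporter, 3.06 ± 0.73 (SE). For App the day-minus-night difference was -0.67 ± 0.49 (SE; adjusted p = 0.528).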

How the data were processed

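Poly(A) RNA of the lateral ventricle choroid plexus was sequenced with a stranded kit, 1 library per mouse sample, per the labels' protocols. The processing notes of the submitters name HISAT2 2.2.1 and featureCounts 2.0.1, besides FastQC 0.11.8, Picard 2.18.2, cutadapt and DESeq2, and the build mm10. How strand and reads with several alignments were handled, and which annotation was used, is not given in the sources used here. Values were deposited by the authors as unnormalized counts for each Entrez gene; the table of 16 aged libraries of batch 2 was used, and the table of 12 young libraries of batch 1 was not.

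Of 27179 identifiers 25275 (93.0%) matched a symbol in RefSeq's gene table for GRCm38.p6, which is mm10. Genes were filtered with filterByExpr by group, scaled by the trimmed mean of M values and fitted with edgeR 4.0.16 (quasi-likelihood, robust, 1 coefficient per group) under R 4.3.3. Benjamini-Hochberg adjustment ran over all 16065 genes tested, with a threshold of 0.05. The spread is shared with the 8 night libraries. SE is the log2 fold change over the square root of F, and 2 prior counts enter log2 CPM. Total counts per day library were 15.1M to 43.9M. Marker scores are means of log2 CPM, and 18 library measures were compared by exact 2-sided permutation over 70 splits. No library was a copy of another: the chi-square per degree of freedom between libraries was at least 7.82.

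The groups, the 42 gene lists (985 of 986 members matched) and the named genes were chosen with earlier results of these data known. Named are App, Zbtb20, a panel of 14 genes, the 10 genes with the smallest p on each side whose groups do not overlap, the 3 smallest p of described lists and the 5 smallest interaction p. Some genes named by this rule are not reported here. Genes outside these are said to be chosen after their values were seen. Alternatives were other scalings and filters, DESeq2 1.42.0, limma-voom (limma 3.58.1), a neural or stromal covariate, the day libraries alone, and each library or sets of 2 or 3 left out. The steps were tested on simulated counts with planted changes, the same dispersion for every gene and no outlying library. That tests the code and does not show what these libraries could detect. The labels do not say whether samples of a group came from separate cages or litters, so p-values measure the spread between these samples.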

Additional observations from a re-analysis of the deposited data

Results flagged for a closer look

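A library was singled out where its gap to the nearest other library of its group was large against the group's whole range (Dixon's test at 95%), in 106 genes and 16 library measures of the 2 day groups. Of 244 groups screened 26 were singled out, and 20 of the 26 were J20+ day library 1. Chance alone singles out about 1 in 20 groups, and genes of the same library are not independent. Many of the 106 genes were chosen by a small p or after their values were seen, among them genes high in J20+ day library 1. The counts of 26 and 20 therefore cannot be set against that rate.

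In J20+ day library 1 several choroid plexus genes stood below the other J20+ libraries: Igf2 at 2180, Kl at 2420 and Htr2c at 940 CPM. Cryab, at 227 CPM, was also lowest there. Genes of neurons, stroma, sensory cells and metabolism, among others, stood above the other J20+ libraries in it. These were Cd200 at 36.9, Mapk10 at 47.2, Cdhr1 at 57.7, Sag at 37.4 and Apbb2 at 36.4 CPM. Of stromal and matrix genes Col1a2 was at 195 and Dcn at 267 CPM. Ext1 was at 15.9 and Frmd6 at 28 CPM. Rbp4 was at 8.68, C2 at 23.5, Slc7a11 at 279 and Fmo2 at 10.7 CPM. Its stromal score of 4.56, fibroblast score of 5.12 and mural cell score of 3.64 (mean log2 CPM) were likewise apart.

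The remaining 6 were spread over 4 libraries. J20+ day library 3 had a total of 43.9M counts and the lowest J20+ level of Rpl30, at 112 CPM. J20- day library 1 had Tafa5 at 31.2 and Dlk1 at 1.44 CPM, above its group. J20- day library 3 had Aox3 at 7.04 CPM, below its group. J20- day library 4 had a macrophage score of 2.49, below its group.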

How the results depend on the processing

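No paired analysis was possible because the replicate numbers follow the order of the sample records and pair no animals. At day 19 of 21 alternatives called 0 genes. The others called 2369 genes (limma-voom with quality weights) and 58 (without J20+ day library 2, J20- day library 4 and J20+ night library 2, counts of calls only). For the day-minus-night difference 24 of 28 alternatives also gave 0. The others gave 9 genes with DESeq2, 5382 with limma-voom with quality weights, 2 without J20+ day library 1 and J20+ night library 2 and with the neural score as a covariate, and 3409 without J20+ night library 2, so that leaving out each library in turn spanned 0 to 3409. Leaving out 2 or 3 libraries together, and limma-voom without quality weights, were chosen after seeing the data. The cause of these changes in the counts was not tested.

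Of 106 single-gene estimates at day, 80 kept their sign under every alternative and 26 did not. None of the 106 was called by edgeR's quasi-likelihood test. Most of the 106 were chosen by p or after their values were seen, so the share called among them is no result about them. Of all genes limma-voom with quality weights called 14.7%, and of the 106 it called 33 besides Zbtb20. Those not given with that tool's value in the report are Pwwp2b, Pik3ap1, Col1a2, Zfp119b, Atp5l, Gapdh, Cdk5rap1, Cryab, Defb9, Atpsckmt, Rps15a, mt-Co1, mt-Nd1, Wnk2, Wnk3, Bhlhe41, Manf, Fth1, Cox4i1, Ndufa1, Cox6c, Rpl32 and Rpl23, each in the direction reported. Zbtb20 was 2.15 under limma-voom with quality weights and spanned -0.17 to 2.22 on leaving out each library. On the same removals the neural score difference spanned -0.43 to 0.81, the choroid epithelium score difference -0.11 to 0.078, and the difference in total counts 4.23M to 12.3M. Under upper-quartile scaling Folr1 was -0.0071 and Htr2c -0.015, and with at least 10 CPM in 4 libraries they were -0.00048 and -0.0085.

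Under limma-voom with quality weights Igf2 was 0.081, Kl 0.093, Lrp1 0.040, Dbp 0.17, Lrp2 -1.19, Arntl -0.19, Cdhr1 -0.40, Sag -0.41, Vwf -0.016, Abcb1a -0.20, Slc22a6 -0.78, Slc6a13 -0.25, Rorb -1.59, Gbp2 -0.21, Oasl2 -0.46, Ifit3b -0.081 and C3 -1.40. Without quality weights Dbp was 0.014 and Rorb -0.080. With the stromal score as a covariate Kl was 0.010, Per2 0.064, Dbp 0.030, Lrp2 -0.29, Arntl -0.20, Cdhr1 -0.074, Sag -0.28, Abcb1a -0.071, Slc22a6 -0.076, Slc6a13 -0.11, Rorb -0.55, Oasl2 -0.11 and C3 -0.24. With the neural score Dbp was 0.0016 and Rorb -0.051. With no filter Dbp was 0.00019, and on the 8 day libraries alone 0.0025.

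Without J20+ day library 1 and J20+ night library 2 Igf2 was 0.090, Kl 0.10, Dbp 0.14, Lrp2 -0.54, Arntl -0.26, Cdhr1 -0.42, Sag -0.48, Abcb1a -0.078, Slc22a6 -0.36, Slc6a13 -0.30, Rorb -0.61, Oasl2 -0.15 and C3 -0.34. With the neural score as well Igf2 was 0.068, Kl 0.060, Dbp 0.14, Lrp2 -0.28, Arntl -0.24, Cdhr1 -0.072, Sag -0.37, Slc6a13 -0.26, Rorb -0.29, Oasl2 -0.091 and C3 -0.22.

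Leaving out each library in turn, Aqp1 spanned -0.13 to 0.28, Slc12a2 -0.014 to 0.36, Slc4a5 -0.076 to 0.24, Folr1 -0.12 to 0.21, Htr2c -0.063 to 0.20, Prlr -0.13 to 0.42, Igf2 -0.17 to 0.092 and Kl -0.15 to 0.10. Lrp1 spanned -0.16 to 0.15, Nr1d1 -0.072 to 0.12, Dbp -0.11 to 0.24, Arntl -0.26 to 0.29 and Rorb -0.58 to 1.42. Lrp2 spanned -0.53 to 3.34, Abcb1a -0.078 to 1.90, Slc22a6 -0.35 to 3.61, Slc6a13 -0.30 to 2.04, C3 -0.34 to 2.87, Oasl2 -0.15 to 1.81, Cdhr1 -0.42 to 5.80 and Sag -0.48 to 2.07.

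With 4 libraries a group and a median SE of 0.26, small differences could go uncalled by edgeR's quasi-likelihood test. J20- libraries had the lower mean depth, and the part of depth was not tested.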
